A study of Mus musculus with 11 samples.

Results

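The genes described here encode the ATP-sensitive potassium (K-ATP) channel, which joins the metabolism of a cell to its membrane voltage. They were chosen by symbol: Abcc8, Kcnj11, Abcc9 and Kcnj8, 4 of the 31576 genes named in the deposited files. A K-ATP channel is built from pore-forming Kir6 subunits, each paired with a sulfonylurea receptor (SUR) that senses nucleotides and binds drugs. In pancreatic beta cells the pair is Kcnj11 (the pore, Kir6.2) and Abcc8 (the receptor, SUR1). Its closure when ATP rises depolarises the cell, opens calcium channels and starts insulin release, and loss of either subunit causes congenital hyperinsulinism in people. Kcnj8 (Kir6.1) and Abcc9 (SUR2) form the channel of vascular smooth muscle and pericytes.

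The assay was CUT&Tag: an antibody brings a transposase to the DNA beside a histone mark or a bound protein, and the DNA it cuts is sequenced. The cells were tdTomato-positive endocrine cells sorted from pancreases at postnatal day 9 (P9). Isl1CKO mice (Isl1loxP/loxP;Neurod1-cre) lack the LIM-homeodomain factor ISL1 where Neurod1-cre is active. Control mice (Isl1loxP/+;Neurod1-cre) were littermates that carry the same Cre and have 1 floxed allele, so they are heterozygous and not wild type. The tdTomato reporter of both genotypes is switched on by the same Cre, and animals of both sexes were used on a C57BL/6 background. Each mark and genotype had 2 libraries, each from a pool of 3 to 4 pancreases and about 20000 cells. H3K27ac marks active promoters and enhancers, and H3K27me3 is the mark of Polycomb silencing. ISL1 binding was analysed in Control cells, at the embryonic stage E14.5 (2 libraries merged into 1 column) and at P9 (1 library).

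Counts within H3K27ac regions totalled 681047 and 1441926 for Isl1CKO, and 1307049 and 1815511 for Control. Those for H3K27me3 totalled 2276887 and 2260039 for Isl1CKO, and 1202276 and 1750706 for Control. For H3K27ac, Control replicate 2 was unlike the others: across regions its log2 levels had a Pearson r of 0.473 to 0.517 with the remaining 3 libraries, which had 0.696 to 0.738 among themselves. For H3K27me3, r ran from 0.653 to 0.802, but Control replicate 2 was close to 0 over Abcc8 and Kcnj11, as described with that mark. Histone marks do not check the deletion itself: the leading H3K27ac region of Isl1, a distal one, averaged 30.6 ± 10.5 CPM (counts per region scaled to a common library size, with TMM factors) in Isl1CKO and 59.3 ± 42.4 CPM in Control (SD, n = 2 each), with the genotypes overlapping, and ISL1 binding in Isl1CKO was not analysed here. Of 18 endocrine marker genes, 15 had an H3K27ac region, and Ins2, Gcg and Sst had none. The summed level of those 15 was 916 and 871 CPM in Isl1CKO, against 1027 and 825 CPM in Control. By leading region 7 of them were lower in Isl1CKO and 8 higher, and 0 had an edgeR adjusted p below 0.05. The smallest unadjusted p were at Scg2, with a log2 fold change of -3.21 (SE 1.07), and Pcsk1, at -1.44 (SE 0.61). Markers of other cells had H3K27ac regions at 7 of 12 mural, 3 of 8 endothelial, 2 of 8 acinar, 5 of 7 ductal and 1 of 7 immune genes. Ductal markers summed to 193 and 178 CPM in Isl1CKO, against 159.8 and 136 CPM in Control, acinar markers to 169 and 122 CPM in Isl1CKO, against 217 and 179.8 CPM in Control, and endothelial markers to 86.7 and 91.4 CPM in Isl1CKO, against 64.1 and 101 CPM in Control. The part of cell makeup in the results was not tested, and fewer cells of a type and less mark per cell cannot be told apart.

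The 4 genes sit as neighbouring pairs, each with a receptor gene upstream of a pore gene on the minus strand (GRCm39). Abcc8 (ENSMUSG00000040136) spans chromosome 7, 45753947 to 45829457, and Kcnj11 (ENSMUSG00000096146) spans 45743377 to 45750188, with 3758 bp between them. Abcc9 (ENSMUSG00000030249) spans chromosome 6, 142533588 to 142648041, and Kcnj8 (ENSMUSG00000030247) spans 142510563 to 142517340, with 16247 bp between them. H3K27ac regions were listed at 4 places for Abcc8 and 5 for Kcnj11, and at 0 for Abcc9 and Kcnj8. H3K27me3 regions were listed at 6 places for Abcc8, 2 for Kcnj11, 1 for Abcc9 and 1 for Kcnj8. The smallest listed region of either mark held 50 counts over its 4 libraries, so an unlisted place may hold fewer counts than that and is not shown to lack the mark. All 9 H3K27ac and 10 H3K27me3 regions passed the filter on low counts.

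The promoters of the chromosome 6 pair are shown because H3K27me3 covered both start sites and H3K27ac was listed at neither. They are the 250 bases before the start of each gene in RefSeq (GRCm38.p6, minus strand), read 5′ to 3′, and 2 of the 4 genes matched that table. Capitals mark TAAT on either strand, the core of many homeodomain binding motifs.
Abcc9, chr6:142702275-142702524: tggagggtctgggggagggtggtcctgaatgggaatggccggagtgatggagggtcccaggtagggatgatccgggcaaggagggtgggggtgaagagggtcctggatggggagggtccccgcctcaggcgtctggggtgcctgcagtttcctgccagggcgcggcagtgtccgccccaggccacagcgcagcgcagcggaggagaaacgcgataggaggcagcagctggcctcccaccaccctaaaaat
Kcnj8, chr6:142571615-142571864: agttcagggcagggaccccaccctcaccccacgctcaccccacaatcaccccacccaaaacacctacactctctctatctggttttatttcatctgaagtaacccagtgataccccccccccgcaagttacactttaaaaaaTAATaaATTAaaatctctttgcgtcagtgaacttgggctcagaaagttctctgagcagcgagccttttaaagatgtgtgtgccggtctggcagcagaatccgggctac
The Abcc9 promoter was GC-rich (66.8%, with 12 CpG sites) and held 0 TAAT matches, while the Kcnj8 promoter had 49.2% GC, 6 CpG sites and 2 TAAT matches. Of 32851 promoters of that length, 54.9% held TAAT, and the median was 52.4% GC with 6 CpG sites. The longer motifs TAATTG and CTAATG were in neither promoter, and were in 7.17% and 6.36% of all promoters.

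The first comparison asked whether H3K27ac at the K-ATP genes differed in Isl1CKO endocrine cells. At the beta cell pair it was lower in Isl1CKO at 8 of 9 regions, against 51.4% of all 30036 tested regions. The 9 are stretches of the same locus read in the same libraries. They are not separate observations, so the shares over all regions are a backdrop and not a test. At 6 of the 9 each Isl1CKO library was under each Control library, as in 19.4% of all tested regions. The median log2 fold change of the 9 regions was -1.70, against -0.03 over all regions tested. No single region passed the edgeR quasi-likelihood test after adjustment over all regions: 0 of the 9 were called, as were 0.0% of all regions, and the members' adjusted p ran from 0.838 to 0.986. At an unadjusted p below 0.05 edgeR had 5 of the 9, all lower, against 3.12% of all regions lower (5.83% in either direction) at that threshold, and DESeq2 called 27 regions in all and 0 of these.

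Kcnj11, the pore subunit, had its main H3K27ac region over its promoter and body (chromosome 7, 45746100 to 45750616). It held 59 and 137 counts in Isl1CKO, against 244 and 281 in Control, or 89.8 and 96.3 CPM in Isl1CKO, against 188 and 154 CPM in Control. The genotypes did not overlap. On the log2 scale the difference, Isl1CKO over Control, was -0.88 (SE 0.32), and its unadjusted p in edgeR was 0.014. Set against its width, the level was 20.6 CPM per kb in Isl1CKO and 37.9 CPM per kb in Control. In Control that was higher than 85.8% of all listed H3K27ac regions, and in Isl1CKO higher than 49.7% of them.

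Before the Kcnj11 start lay 4 smaller regions, which reach into the end of Abcc8. The nearest (45750897 to 45752173, 0.709 kb before the start) measured 9.13 and 7.03 CPM in Isl1CKO, against 41.7 and 10.96 CPM in Control, a log2 fold change of -1.70 (SE 0.89). The next (45752320 to 45752676) held 0 and 5 counts in Isl1CKO, against 22 and 30 in Control, a log2 fold change of -2.95 (SE 1.36). Leaving out 1 library moved the first of these to between -2.38 and -0.41, the weaker value without Control replicate 1, and the second to between -7.40 and -2.20, the larger value without Isl1CKO replicate 2. The value of -7.40 rests on a count of 0 in the lone Isl1CKO library, so its size is not measured. The groups did not overlap at either region, and the count of 0 in Isl1CKO replicate 1 allows a level of up to 4.56 CPM, counting error only. The other 2 overlap the last part of Abcc8 although they are listed under Kcnj11. The one annotated as an exon (45754635 to 45755565) measured 6.09 and 3.51 CPM in Isl1CKO, against 36.3 and 20.8 CPM in Control, or -2.61 (SE 0.89) on the log2 scale, and edgeR gave an unadjusted p of 0.0101. At the region annotated as 3′ UTR (45753664 to 45754547) the values were 19.8 and 0 CPM in Isl1CKO, against 34.0 and 3.84 CPM in Control, and the libraries of the genotypes overlapped.

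Abcc8, the regulatory subunit, had 2 regions near its start with different values. The region 1.14 to 4.09 kb into the gene (45825372 to 45828319) held 17 and 40 counts in Isl1CKO, against 125 and 158 in Control. That is 25.9 and 28.1 CPM in Isl1CKO, against 96.5 and 86.6 CPM in Control, so the groups were well apart and each was tight. Isl1CKO over Control was -1.75 (SE 0.45) on the log2 scale, and the unadjusted p in edgeR was 0.00135 (adjusted p = 0.838, not called). Of tested regions 0.127% had a p that small, about the share that would have it if no region differed. The region over the start site itself (45828662 to 45829815) measured 48.7 and 32.3 CPM in Isl1CKO, against 59.4 and 15.9 CPM in Control. There the genotypes overlapped, and the log2 fold change was 0.10 (SE 0.63), turning to -0.58 without Control replicate 2 and to -0.20 without Isl1CKO replicate 1.

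Deeper in Abcc8, an intron region (45805802 to 45806438) measured 3.04 and 4.22 CPM in Isl1CKO, against 10.03 and 37.8 CPM in Control, a log2 fold change of -2.66 (SE 1.04). Both Isl1CKO libraries were lower there, while the Control libraries differed widely from each other. The remaining region (45823904 to 45825033) measured 7.61 and 9.14 CPM in Isl1CKO, against 24.7 and 7.13 CPM in Control, and the groups overlapped. Without Control replicate 1, the intron region was at -3.25 and the region 1.14 to 4.09 kb into the gene at -1.62. Without Control replicate 2 the intron region was at -1.41 (SE 1.78) and the other at -1.83. In both fits the lone Control library is assumed to vary like the Isl1CKO libraries, so no p-value is given.

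**Figure D1:**
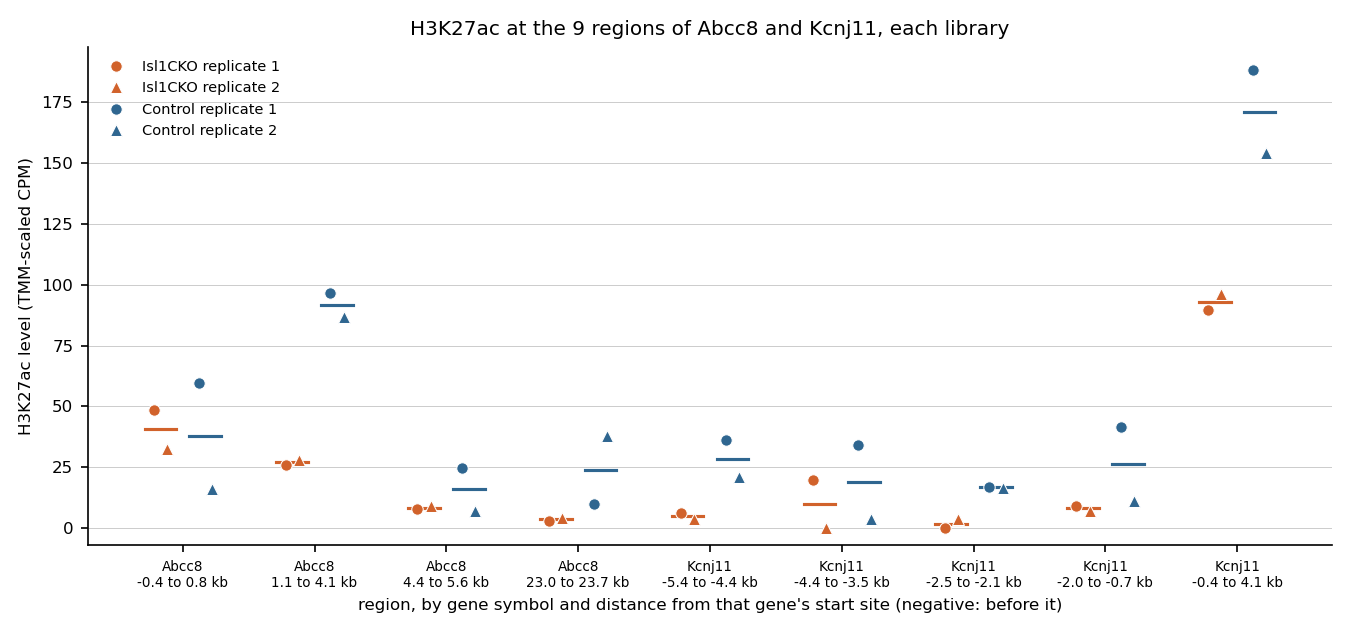
H3K27ac level in TMM-scaled CPM (y axis, linear) at each listed region of Abcc8 and Kcnj11 (x axis, with the distance of its ends from the gene's start site in kb). Points are libraries (circles replicate 1, triangles replicate 2), bars are group means, and Isl1CKO (orange) stands left of Control (blue). At the Abcc8 region 1.14 to 4.09 kb into the gene the Isl1CKO libraries sit at 25.9 and 28.1 CPM, below 96.5 and 86.6 CPM in Control, while the genotypes overlap at the Abcc8 start site.

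Whether 1 region of a gene differed from the rest of the same gene was tested directly with edgeR's diffSpliceDGE. The Abcc8 start-site region lay 1.20 (SE 0.61) above the other Abcc8 regions on the log2 scale, with an unadjusted p of 0.0603. The region 1.14 to 4.09 kb into the gene lay below them, at -0.66 (SE 0.52), with an unadjusted p of 0.218. Neither passed adjustment over 19727 regions, of which 0 were called and 478 had an unadjusted p below 0.05 in edgeR.

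Summed over the regions listed under each symbol, the 2 genes of the beta cell pair had similar fold changes. Kcnj11 had 123 and 110.1 CPM in Isl1CKO, against 312 and 206 CPM in Control, a log2 fold change of -1.16 (SE 0.27). Abcc8 had 83.7 and 73.6 CPM in Isl1CKO, against 187 and 148 CPM in Control, a log2 fold change of -1.09 (SE 0.32). For both genes each Isl1CKO library lay below each Control library, as it did for 19.7% of 15993 genes, and the median of all genes was -0.02. By unadjusted p Kcnj11 ranked 27 and Abcc8 ranked 114 among those genes. Their edgeR adjusted p was 0.265 for Kcnj11 and 0.397 for Abcc8, and no gene was called (0.0%), with 1197 genes (7.48%) below an unadjusted p of 0.05, 4.2% of genes in the lower direction as these 2 were. Kcnj11 was called with DESeq2 (adjusted p = 0.0132), which called 76 of the 15993 genes. That sum includes the 2 regions listed under Kcnj11 that overlap the end of Abcc8. Over the 3 regions that overlap Kcnj11 or the 3 kb before its start, the edgeR adjusted p was 0.320. There Kcnj11 ranked 44 of 15323 genes by unadjusted p, and DESeq2 was not run on that sum. Leaving out 1 library moved Kcnj11 to between -1.43 and -0.81, the weaker value without Control replicate 1. Such a fit assumes that the lone library of a genotype varies like those of the other genotype, so no p-value is given.

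Much of the H3K27ac inside the Abcc8 gene was listed under other symbols. Of 16 regions that overlap the gene or the 3 kb before its start, 4 carry its symbol, 2 carry Kcnj11, and 10 carry Gm45486 or Gm45487, which are predicted genes. A histone mark has no strand, so such regions cannot be assigned to one of several overlapping genes. All 12 regions under other symbols had negative log2 fold changes, from -3.23 to -0.32 with a median of -1.47. Over all tested H3K27ac regions 51.4% were below 0. At 7 of the 12 each Isl1CKO library was under each Control library, as in 19.4% of all tested regions. The 12 are stretches of the same locus read in the same libraries, so they are not separate observations. Added together by position, a sum chosen after seeing the data, Abcc8 had 122 and 275 counts in Isl1CKO, against 739 and 654 in Control. That is 149 and 159.9 CPM in Isl1CKO, against 465 and 313 CPM in Control.

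The log2 fold change of this sum was -1.33 (SE 0.22), the smallest unadjusted p of 15323 genes summed in the same way (edgeR adjusted p = 0.0596). It stood just outside the threshold, and 0.0% of genes were called, with 1065 below an unadjusted p of 0.05 in edgeR (3.88% of genes were lower at that threshold). With Control replicate 2 left out the Abcc8 sum was at -1.58, and with Control replicate 1 left out at -1.005. It was -1.28 without Isl1CKO replicate 1 and -1.37 without Isl1CKO replicate 2. In each of these fits the lone library of a genotype is assumed to vary like those of the other genotype, so no p-value is given. Kcnj11 summed by position gave -1.09 (SE 0.28), and Abcc9 had a single thin region listed under 5330439B14Rik, with 2 and 17 counts in Isl1CKO, against 4 and 27 in Control.

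**Figure D2:**
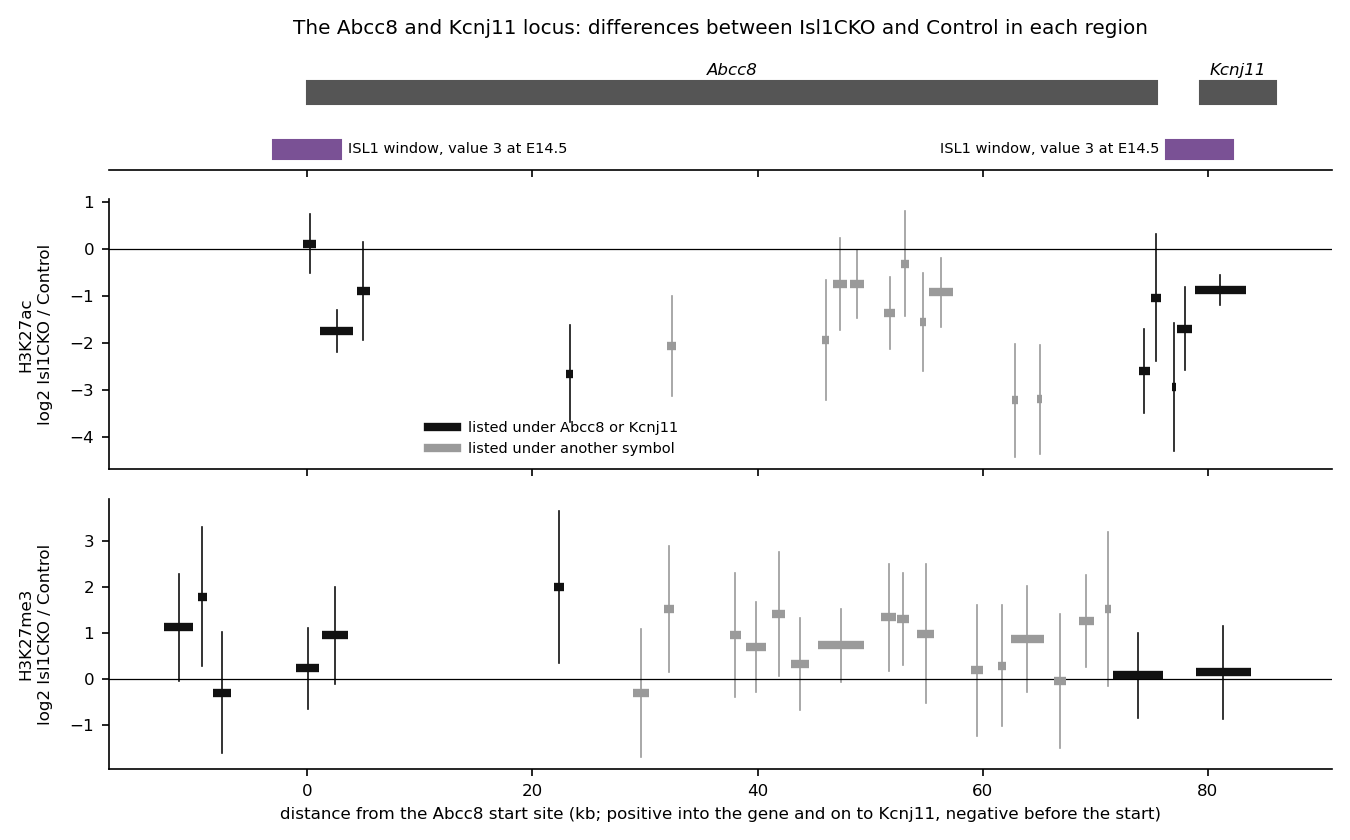
Map of the Abcc8 and Kcnj11 locus along the distance from the Abcc8 start site in kb (x axis). The top panel shows the genes and the ISL1 promoter windows, and the lower panels show the log2 fold change of Isl1CKO over Control for each H3K27ac and H3K27me3 region, with thin lines for 1 SE, black where the region is listed under Abcc8 or Kcnj11 and grey otherwise. H3K27ac is below 0 at 15 of 16 regions of Abcc8, against 51.4% of all tested regions. The 16 are stretches of the same locus and not separate observations, and the exception is the start site, at 0.10.

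The size of the H3K27ac difference depended on the scaling. With library sizes recovered from the authors' deposited fold changes, the summed log2 fold change was -0.51 for Kcnj11 and -0.42 for Abcc8, and -0.68 for Abcc8 by position, while the median of all genes stood at 0.63, or 0.69 by position. Relative to those medians the pair remained lower, but its own values were closer to 0 and none was called. Among the 9 regions, 5 in the authors' deposited table had an adjusted p below 0.05, all with negative fold changes. In that table the Abcc8 region 1.14 to 4.09 kb into the gene had a log2 fold change of -1.27 (adjusted p = 0.00363), and the Kcnj11 promoter had -0.31 (adjusted p = 0.462). The authors' deposited table called 11662 of 31479 H3K27ac regions, of which 2912 were lower.

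On each side of the pair the nearest listed gene had higher H3K27ac in Isl1CKO at its leading region, and neither was called. Nomo1, on the Kcnj11 side, had a promoter H3K27ac level of 36.5 and 34.4 CPM in Isl1CKO, against 20.1 and 3.84 CPM in Control, a log2 fold change of 1.59 (SE 0.79). Ush1c, on the Abcc8 side, had 3 regions. The leading one had 95.9 and 91.4 CPM in Isl1CKO, against 78.0 and 76.7 CPM in Control, a log2 fold change of 0.27 (SE 0.36). Farther out on the Kcnj11 side, the leading region of Abcc6 was at -1.59 (SE 1.29). Each Isl1CKO library was under each Control library there, as at 18.3% of genes. Beside the chromosome 6 pair, Ldhb was at -0.31 (SE 0.61) and Cmas at -0.15 (SE 0.73). The difference between these genes and Abcc8 or Kcnj11 was not tested.

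By the root mean square difference of log2 CPM over the 4 H3K27ac libraries, the genes closest to the leading Abcc8 region, among 15985 genes, were Helz2 (0.245), Sik2 (0.308) and Ripply3 (0.322). Those closest to the leading Kcnj11 region were Itpkc (0.183), Samd4b (0.195) and Lnpep (0.201). This is a likeness in level and pattern over 4 libraries, given as a description.

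The second comparison asked where the Polycomb mark H3K27me3 lay and whether it differed by genotype. Per length the Kcnj8 promoter had the highest level of the 10 regions in each of the 4 libraries. The Kcnj8 promoter region (chromosome 6, 142513156 to 142519863) had 31.7 CPM per kb in Isl1CKO and 41.8 CPM per kb in Control, more than 92.3% of all listed H3K27me3 regions in Isl1CKO and 94.9% in Control. The Abcc9 promoter region (142645817 to 142648800) had 22.6 CPM per kb in Isl1CKO and 30.3 CPM per kb in Control, more than 84.2% of regions in Isl1CKO and 90.5% in Control. The Kcnj11 promoter (45745666 to 45750517) had 17.2 CPM per kb in Isl1CKO and 15.8 CPM per kb in Control, a mean of 31.2 and 0.363 CPM per kb. It was denser than Abcc9 in Isl1CKO replicate 2 and Control replicate 1 and less dense in the other 2 libraries, so these promoters have no fixed order. The 6 Abcc8 regions ranged from 9.50 to 18.1 CPM per kb in Isl1CKO and from 3.40 to 12.3 CPM per kb in Control.

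At Kcnj8, the pore subunit of vascular cells, H3K27me3 measured 180.3 and 244 CPM in Isl1CKO, against 280.2 and 280.8 CPM in Control. At Abcc9, its receptor, it measured 77.8 and 57.0 CPM in Isl1CKO, against 82.8 and 98.1 CPM in Control. At each promoter the Isl1CKO libraries were the lowest 2 of the 4, as at 16.7% of all 19434 tested H3K27me3 regions. The log2 fold changes were -0.40 (SE 0.23) for Kcnj8 and -0.43 (SE 0.39) for Abcc9, neither was called, and 0.0% of all regions were. The authors' deposited table gave -0.95 for each, with adjusted p = 0.00695 for Kcnj8 and 0.0102 for Abcc9, in a table whose median over all regions was -0.45. Of 12 mural cell markers, 7 had an H3K27me3 region, with a summed level of 953 and 899 CPM in Isl1CKO, against 1145 and 872 CPM in Control. The 7 mural markers with H3K27ac regions summed to 100.4 and 139.8 CPM in Isl1CKO, against 135.9 and 145.2 CPM in Control. Rgs5, Pdgfrb, Acta2, Higd1b and Des had no listed H3K27ac region, which does not show that they lack H3K27ac.

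At the beta cell pair the H3K27me3 comparison rested on 1 library. The Kcnj11 promoter measured 60.7 and 105.8 CPM in Isl1CKO, against 151.6 and 1.76 CPM in Control, or 172 counts in Control replicate 1 and 3 in Control replicate 2. The second Kcnj11 region (45753478 to 45757902) measured 47.0 and 56.5 CPM in Isl1CKO, against 96.9 and 2.94 CPM in Control. At the Abcc8 start site (45828388 to 45830439) the levels were 20.9 and 37.4 CPM in Isl1CKO, against 45.8 and 4.70 CPM in Control. In each case Control replicate 1 was above both Isl1CKO libraries and Control replicate 2 was far below them.

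Control replicate 2 was also the lowest library at the other Abcc8 regions, while Control replicate 1 was above both Isl1CKO libraries at 1 of those 5. The region 1.28 to 3.60 kb into the gene (45825856 to 45828173) measured 30.8 and 53.1 CPM in Isl1CKO, against 44.1 and 0.587 CPM in Control. An exon region (45806630 to 45807536) had 40 and 16 counts in Isl1CKO, against 7 and 0 in Control, the only one of the 8 with each Isl1CKO library over each Control library (18.7% of all tested regions). Before the Abcc8 start, 3 distal regions held 18 to 85 counts per library in Isl1CKO, against 10 to 43 in Control replicate 1 and 0 in Control replicate 2. A count of 0 there allows a level of up to 1.76 CPM, counting error only.

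Control replicate 2 was below 10% of Control replicate 1 at 7 of the 8 regions of Abcc8 and Kcnj11, against 8.15% of all 20086 H3K27me3 regions. It was also below 10% at 13 of the 17 regions that lie inside Abcc8 under symbols of neither gene, and at 0 of the 2 regions of Abcc9 and Kcnj8. Over the 1942 regions that overlap H3K27ac the share was 7.62%. The regions of Abcc8 and Kcnj11 are stretches of the same locus, so they are not separate observations. Summed by position, 7 of 2421 genes with at least 100 CPM in Control replicate 1 had less than 10% of that in Control replicate 2, a threshold chosen after seeing the data. Abcc8 had the highest Control replicate 1 level of the 7, and Kcnj11 and Gm45486 of the same locus were among them. The others were Cbfa2t3, Rap1gap, Pabpn1l and Mir6396, of which Pabpn1l and Mir6396 share 1 region.

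The genotype difference in H3K27me3 at this pair changed sign with the library left out. Summed by symbol, Abcc8 had 135 and 162 CPM in Isl1CKO, against 171 and 5.17 CPM in Control, a log2 fold change of 0.78 (SE 0.89). Kcnj11 had 109 and 165 CPM in Isl1CKO, against 244 and 4.60 CPM in Control, a log2 fold change of 0.16 (SE 0.96). Without Control replicate 1 Abcc8 was at 4.83 and Kcnj11 at 4.88. With Control replicate 2 left out instead, Abcc8 was at -0.21 and Kcnj11 at -0.84. Each of these fits has a lone Control library and cannot measure the spread between Control pools. With all 4 libraries 0.0% of 7909 genes were called and 5.47% had an unadjusted p below 0.05 in edgeR. With all libraries 0 of the 10 member regions were called and 0 had an unadjusted p below 0.05 in edgeR, against 4.34% of all regions, and DESeq2 also called 0 of them. What set Control replicate 2 apart at this locus was not tested.

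**Figure D3:**
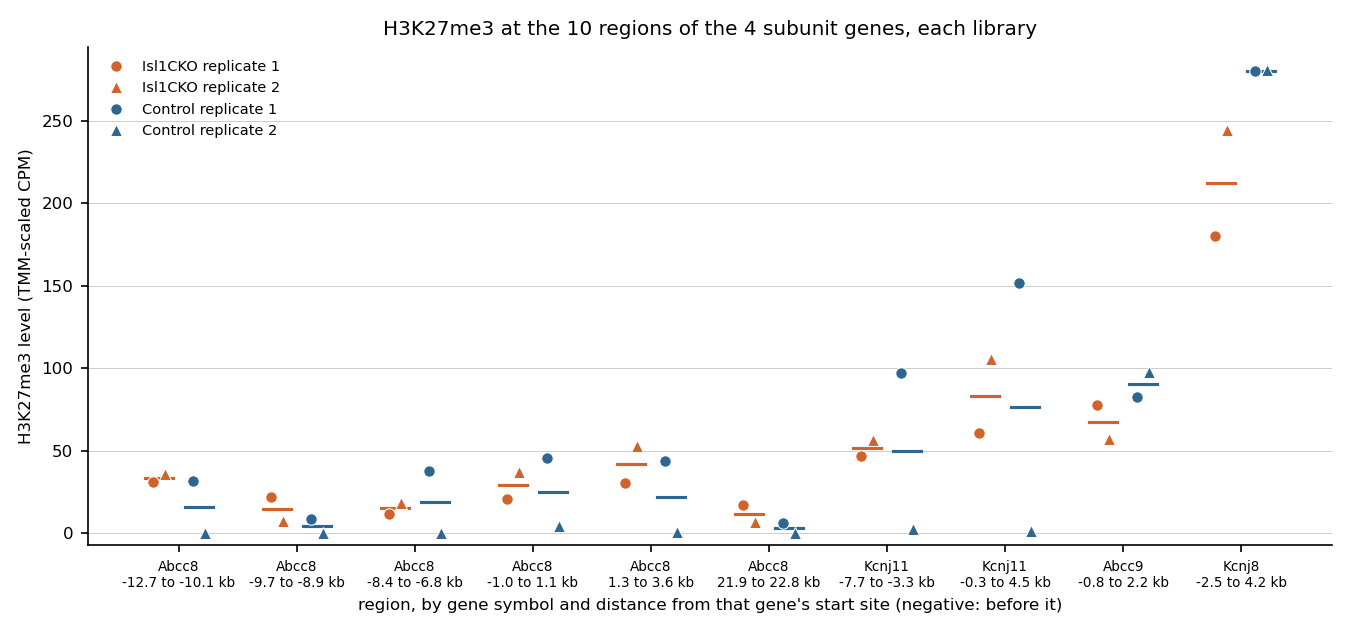
H3K27me3 level in TMM-scaled CPM (y axis, linear) at each listed region of the 4 genes (x axis, with the distance of its ends from the gene's start site in kb), drawn as for H3K27ac. Control replicate 2 (blue triangles) lies between 0 and 4.70 CPM at all 8 regions of Abcc8 and Kcnj11 and at 98.1 and 280.8 CPM at Abcc9 and Kcnj8.

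Both marks were listed on the same stretches of the beta cell pair. Of the H3K27ac regions, 2 of 4 for Abcc8 and 3 of 5 for Kcnj11 shared at least 1 bp with an H3K27me3 region, against 6.86% of all H3K27ac regions. Of the H3K27me3 regions, 2 of 6 for Abcc8 and 2 of 2 for Kcnj11 overlapped H3K27ac, against 9.67% of all, and 0 did at Abcc9 and Kcnj8. At the overlapping H3K27me3 regions of the pair Control replicate 2 had 0.587 to 4.70 CPM, so in Control the overlap rested on replicate 1. The shares over all regions take no account of region width. In pooled cells, marks on the same DNA and marks in different cells cannot be told apart.

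**Figure D4:**
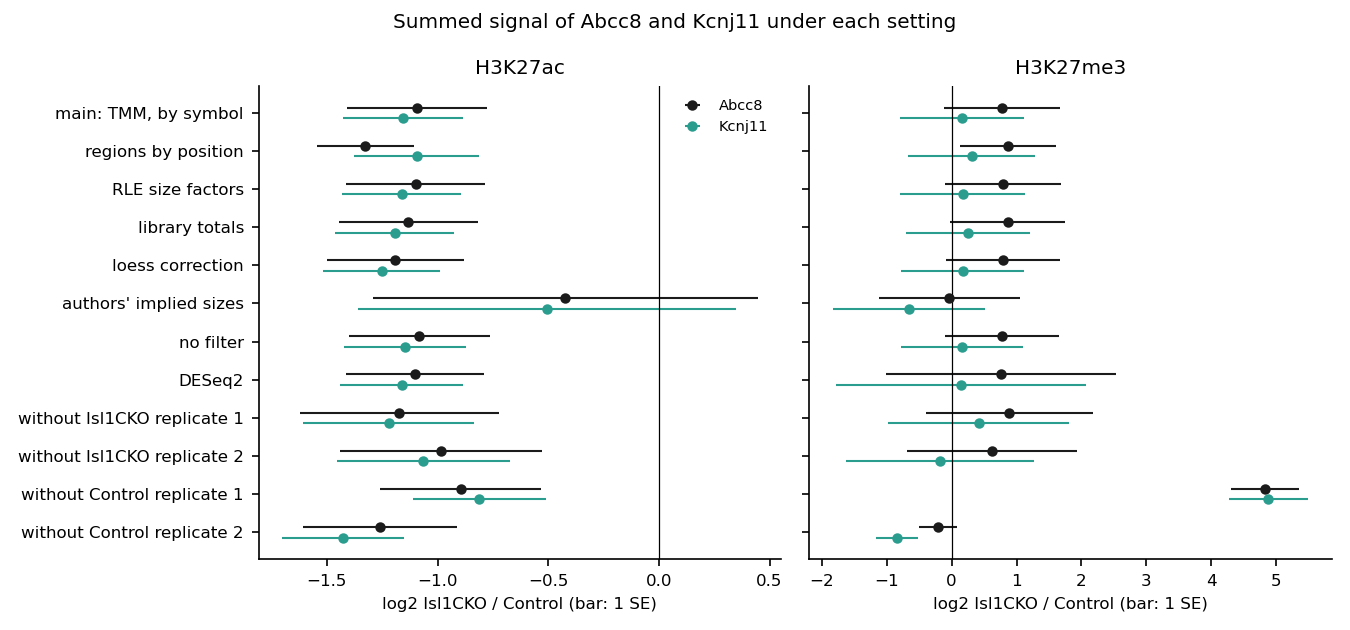
Log2 fold change of Isl1CKO over Control (x axis) of the counts summed for Abcc8 (black) and Kcnj11 (green) under each setting (y axis), with bars of 1 SE. H3K27ac lies below 0 in all settings shown, from -1.43 to -0.42, while H3K27me3 runs from -0.84 to 4.88 and takes its highest values without Control replicate 1.

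The third question was whether ISL1 itself was recorded at these promoters in Control cells. ISL1 values were whole numbers per promoter window whose unit the sources used here do not give, and they had no replicates. At E14.5 the value was 3 in the Abcc8 window (chromosome 7, 45826458 to 45832457) and 3 in the Kcnj11 window (45747189 to 45753188), a value reached or passed by 8.96% of 22332 windows. It was 0 in the Abcc9 window (chromosome 6, 142645042 to 142651041) and 0 in the Kcnj8 window (142514341 to 142520340). So 2 of the 4 genes had a value of at least 1, against 37.7% of all windows, and neither reached 5, as 2.06% of windows did. At P9 all 4 windows were at 0, against 8.86% of windows at 1 or more, and the highest P9 value anywhere was 8, against 133 at E14.5. The stages differ in libraries and in total, so the values at P9 and E14.5 were not compared for a gene.

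The Abcc8 window overlaps both H3K27ac regions at the start of that gene, and the Kcnj11 window overlaps 3 H3K27ac regions, among them its promoter. Among 12 transcription factors linked to K-ATP gene expression, all 12 windows had a value of at least 1 at E14.5, the highest being 9 at Isl1. Of 24 windows of other genes of stimulus-secretion coupling, the steps that join glucose entry to hormone release, 17 had a value of at least 1 at E14.5 and 7 at P9.

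Other genes of the pathway were read from lists, each gene by its region with the most counts. Of 26 stimulus-secretion genes, 23 had an H3K27ac region, 8 lower and 15 higher in Isl1CKO, with a median log2 fold change of 0.27, against 0.02 over all genes. None was called, and the genotypes did not overlap at 13 of them, with Isl1CKO higher at 10 and lower at 3, against 19.3% and 18.3% of 15935 genes read in the same way. The 4 with the smallest unadjusted p were all higher: Atp2a2, which pumps calcium into the endoplasmic reticulum, at 1.02 (SE 0.34), Cacnb3, a calcium channel beta subunit, at 0.88 (SE 0.33), Pclo, a scaffold of secretory sites, at 1.46 (SE 0.64), and Syt7, a calcium sensor of exocytosis, at 0.70 (SE 0.32). Under H3K27me3, 5 of the 26 had a region and 0 were called.

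Of the 12 transcription factors 10 had an H3K27ac region, 4 lower and 6 higher in Isl1CKO, with a median of 0.09 and 0 called. Mafa, an activator of mature beta cell genes, had the smallest p, at -1.70 (SE 0.69). Of 22 other ABCC and KCNJ genes, relatives that do not form K-ATP channels, 12 had a region, 7 lower and 5 higher, with a median of -0.16, and at 6 each Isl1CKO library was under each Control library (18.3% of all genes read in this way). Kcnj12, another inward rectifier, was at -3.61 (SE 0.91), with 1 and 5 counts in Isl1CKO, against 30 and 83 in Control. Kcnj1, a potassium channel known from the kidney, was at -2.20 (SE 0.91), with 3 and 8 counts in Isl1CKO, against 32 and 43 in Control. None of these was called.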

How the data were processed

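CUT&Tag libraries of sorted P9 endocrine cells (2 Isl1CKO and 2 Control per histone mark) and ISL1 values of Control cells were analysed, with groups taken from the labels. The authors deposited raw counts per region and library, their log2 fold change and log2 mean abundance, and a likelihood ratio score. The authors' p-value and adjusted p-value of each region stand beside them. They also deposited ISL1 values, whole numbers treated as a score because the header gives no unit. Per the submitters' processing notes, the tools were edgeR 4.0.16, ChIPseeker 1.38.0, MACS2 2.2.6, Picard 2.27.4 and Bowtie2 2.3.5.1, on GRCm39, with their roles not given in the sources used here. Per-sample columns not used numbered 0.

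Repeated rows were removed (108 for H3K27ac and 90 for H3K27me3). The chromosome numbers in the histone files followed alphabetical order. They were relabelled, after which 100% of 18508 and 10315 regions matched the chromosome of their gene in the ISL1 file. Low regions were dropped by filterByExpr (edgeR 4.0.16, R 4.3.3), and the rest were scaled by TMM, fitted without a block and compared by the two-sided quasi-likelihood test with Benjamini-Hochberg adjustment over all 30036 or 19434 tested regions, with calls below 0.05. Counts summed by symbol and, later, by position were fitted alike, over all genes. Differences between regions of a gene used diffSpliceDGE. The fit was run on simulated counts with large changes in well-counted regions only, which does not show how it performs at thin regions or smaller differences. CPM are relative to counts in regions, and a count of 0 allows 3 counts. P-values rest on the spread between 2 pools per genotype, which edgeR draws toward a trend over all regions or genes. A fit that leaves out 1 library has a lone library in that genotype, so its calls do not cover the spread of that genotype. PCR reads are not independent molecules, so such limits cover counting error only. Alternatives were other scalings, no filter, DESeq2 1.42.0, a replicate block and leaving out each library.

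All members and their regions are named. Of each list up to 4 genes per mark with the smallest unadjusted p may be named, along with the neighbour on each side of a pair and the 3 genes most alike in pattern. The members and lists were chosen with earlier results of these data known.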

Additional observations from a re-analysis of the deposited data

How the results depend on the processing

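Of 353 comparisons of a member's value with its main value, 318 kept direction and side of the threshold, 6 gained a call and 29 changed sign. Over all H3K27ac regions the number called was 27 with DESeq2 and 3 with the authors' implied sizes, and for H3K27me3 142 with DESeq2. For genes summed by symbol it was 76 with DESeq2, 1 with implied sizes, 2 with a loess correction and 63 with the replicate block for H3K27ac, and 9 with DESeq2 and 23 with the replicate block for H3K27me3, against 0 in each main fit. Leaving out 1 library gave 0 to 2189 H3K27ac regions, 0 to 1307 H3K27ac genes, 0 to 10 H3K27me3 regions and 0 to 9 H3K27me3 genes. Members called numbered 0 to 2 H3K27ac regions, 0 to 1 H3K27ac genes and 0 to 1 H3K27me3 genes when 1 library was left out, and 1 H3K27ac gene, Kcnj11, with DESeq2 and with the replicate block (adjusted p = 0.0165). At an ISL1 value of at least 5, 0 members counted at E14.5.

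With implied sizes H3K27me3 turned to -0.49 at the Abcc8 start site, -0.63 at the Kcnj11 promoter and -0.68 at the other Kcnj11 region, and to -0.034 and -0.66 for summed Abcc8 and Kcnj11. With the replicate block the distal Abcc8 region nearest its start turned to 1.15 for H3K27me3. The H3K27ac region 3.48 kb before the Kcnj11 start turned to -0.59 relative to other Kcnj11 H3K27ac regions. Replicate numbers did not pair the libraries: same-numbered deviations correlated at 0.0490 for H3K27ac and -0.0142 for H3K27me3. No other pairing was tried. The cause of these changes was not tested.

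Leaving out 1 library gave H3K27ac ranges of -1.53 to 0.29 at the Abcc8 region 4.42 to 5.55 kb into the gene and -0.58 to 1.37 at its start site. At the region 3.48 kb before the Kcnj11 start, over the end of Abcc8, the range was -7.85 to 1.25. Relative to the rest of the gene the ranges were -0.26 to 1.14 for the Abcc8 region 4.42 to 5.55 kb into the gene. They were -6.62 to 2.02 for the region 3.48 kb before Kcnj11 and -0.95 to 0.36 for the region 0.709 kb before Kcnj11. For H3K27me3 the ranges of the fold change were -1.33 to 8.01 at the distal Abcc8 region nearest its start, and 0.72 to 7.98 and 0.073 to 9.17 at the other distal regions. They were -0.083 to 6.01 and -0.66 to 2.61 at its promoter regions, and -0.92 to 4.10 and -0.88 to 5.51 at the Kcnj11 regions. For summed Abcc8 and Kcnj11 they were -0.21 to 4.83 and -0.84 to 4.88. The values 8.01, 7.98, 9.17, -7.85 and -6.62 rest on a count of 0 in the lone library of a genotype, so their size is not measured. Depth limits single regions: several held under 10 counts in an Isl1CKO library.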
